A study of Mus musculus with 8 samples.

Results

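Imprinted genes were followed across 4 populations of mouse adult fibroblasts (MAFs). Of 42 listed genes, 40 had an array probe set that carried their symbol alone, out of 18193 genes with such a probe set on the whole array. From 107 such probe sets the brightest of each gene, by mean log2 signal over the 8 arrays, stood for it, and 24 of the 40 genes had a mean above 5.402, the median of all probe sets. The genes were picked by name and genomic cluster, though earlier results of these data were known when the list was made. H19 was measured only by a probe set that it shares with the microRNA gene Mir675, and Dio3 was not analysed here.

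The fibroblasts had been isolated from the peritoneal fascia of mice with a floxed Rb gene, which encodes the retinoblastoma protein RB. All 4 populations carried p53DD, a dominant negative fragment that disables p53, delivered by retrovirus. The infected cells were selected and pooled, so the populations did not start as single clones. Whether those that later grew back came from few cells was not measured here. GFP cells had received an adenovirus with GFP and kept RB, and Cre cells had received an adenovirus with GFP and Cre recombinase, which removes the floxed part of Rb. Naïve cells were untreated, and Recurred cells had been given cisplatin (CDDP), a drug that crosslinks DNA, for 24 h and had then grown back after it was withdrawn. Crossing RB status with recurrence gave the GFP Naïve and Cre Naïve groups and the GFP Recurred and Cre Recurred groups, each with 2 arrays labelled as biological replicates.

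In a mammal, most genes are read from both parental copies, whereas an imprinted gene is read mainly or wholly from the copy of 1 parent. For many imprinted genes, though not all, the choice is set by DNA methylation laid down in egg or sperm at imprinting control regions. This methylation is kept through cell division by DNMT1, its partner UHRF1 and the zinc finger protein ZFP57 with TRIM28. Imprinted genes lie in clusters, in which long non-coding RNAs and insulators tie the expression of neighbours together. Many of them govern fetal growth, with paternally expressed genes such as Igf2 tending to promote growth and maternally expressed ones such as Igf2r, Cdkn1c, Grb10 and H19 tending to restrain it. A group of them is highly expressed in embryonic mesenchyme and falls in level after birth. The arrays measured total RNA and did not tell the parental alleles apart. In bulk RNA of this kind, fewer cells that express a gene and less RNA per cell cannot be told apart.

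The array medians ran from 5.37 to 5.41. At its brighter probe set Rb1 read 7.98 to 8.78 on the 4 GFP arrays and 4.98 to 6.21 on the 4 Cre arrays. Cre Naïve replicate 2 stood apart from its own group, as its correlation over all probe sets was 0.992 with Cre Recurred replicate 2 and 0.986 with Cre Naïve replicate 1. The GFP Naïve arrays were about as far apart, at 0.987, and GFP Naïve replicate 1 had 0.994 with Cre Naïve replicate 1. For several genes the value without Cre Naïve replicate 2 is given beside the result, from a fit that left 1 Cre Naïve array. All 10 fibroblast markers had means above the median of all probe sets, with an average log2 signal of 10.90 on Cre Recurred replicate 1 and 11.48 to 12.07 on the other arrays. Differences were fitted with limma on all 8 arrays. A gene was called when it differed by 1.5-fold or more with a Benjamini-Hochberg adjusted p under 0.25 over 45037 probe sets, which are the thresholds of the study. With 2 arrays a group these calls are permissive, and at an adjusted p under 0.05 none of the 40 genes was called in any comparison.

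More imprinted genes were called between the recurred populations with and without RB than in any other comparison. In Cre Recurred cells 7 of the 40 genes were lower than in GFP Recurred cells and 0 were higher. The count of 0 holds for the brightest probe sets, as some dimmer probe sets of Ndn were called higher. It also leaves out H19, whose shared probe set read higher on both Cre Recurred arrays than on both GFP Recurred arrays. The genes that fell were Nnat, Slc38a4, Plagl1, Asb4, Sgce, Grb10 and Impact, with log2 differences from -5.67 to -1.06. An unadjusted p under 0.05 was found for 11 members. The calls were 17.5% of the members, beside 8.85% of all probe sets called in either direction and 4.78% called lower. Counted by the brightest probe set of each gene, as the members were, 6.55% of all genes were called lower. Restricted to genes with a mean above the median, 6 of 24 members stood beside 9.6% of all genes. The median log2 difference of the 40 members was -0.13, against 0.05 over all probe sets. For the 24 members above the median of all probe sets it was -0.39, with 17 of the 24 negative, against 0.03 over all such probe sets. The calls came from a minority of members. Of 21 measured genes expressed from the paternal copy 5 were called, with a median of -0.36, and of 16 expressed from the maternal copy 2 were called, with a median of -0.04. Among members above the median of all probe sets these medians were -0.77 for 12 paternal and -0.27 for 9 maternal genes. Whether the shares or medians differ by parental copy was not tested. The calls depended on single recurred arrays, over the whole array as among the members. Leaving out Cre Recurred replicate 1, or either GFP Recurred array, removed the members' calls and most of those over all probe sets. Leaving out any other array gave more calls over all probe sets than the full set did. Each such fit left 1 array in a group. The log2 difference of Nnat stayed between -5.88 and -5.47 and that of Impact between -1.21 and -0.91 with any array left out.

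The other comparisons called few members. Between Cre Naïve and GFP Naïve cells 0 of 40 were called, with 0.0% of all probe sets called and 0 members at an unadjusted p under 0.05. Rb1 itself, the targeted gene, was not called there either. At its brighter probe set it had a log2 difference of -2.06 (adjusted p = 0.997 from limma). A lack of calls in this comparison therefore does not show a lack of difference. Between GFP Recurred and GFP Naïve cells 0 of 40 were called, beside 0.0133% of all probe sets, and 1 member had an unadjusted p under 0.05. Between Cre Recurred and Cre Naïve cells only Impact was called, beside 1.16% of all probe sets, while 12 members had an unadjusted p under 0.05. Averaged over naïve and recurred cells, the Cre arrays were lower than the GFP arrays for 2 members, Impact and Nnat, beside 1.29% of all probe sets. The test of whether recurrence acted differently with and without RB, the interaction, called 0 members, beside 0.4% of all probe sets, and 6 members had an unadjusted p under 0.05. The smallest adjusted p of a member in the interaction was 0.374. These counts rested on single arrays. In every comparison they changed when 1 array was left out, and so did the counts over all probe sets. The heat map of all members shows these patterns by cluster.

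**Figure D1:**
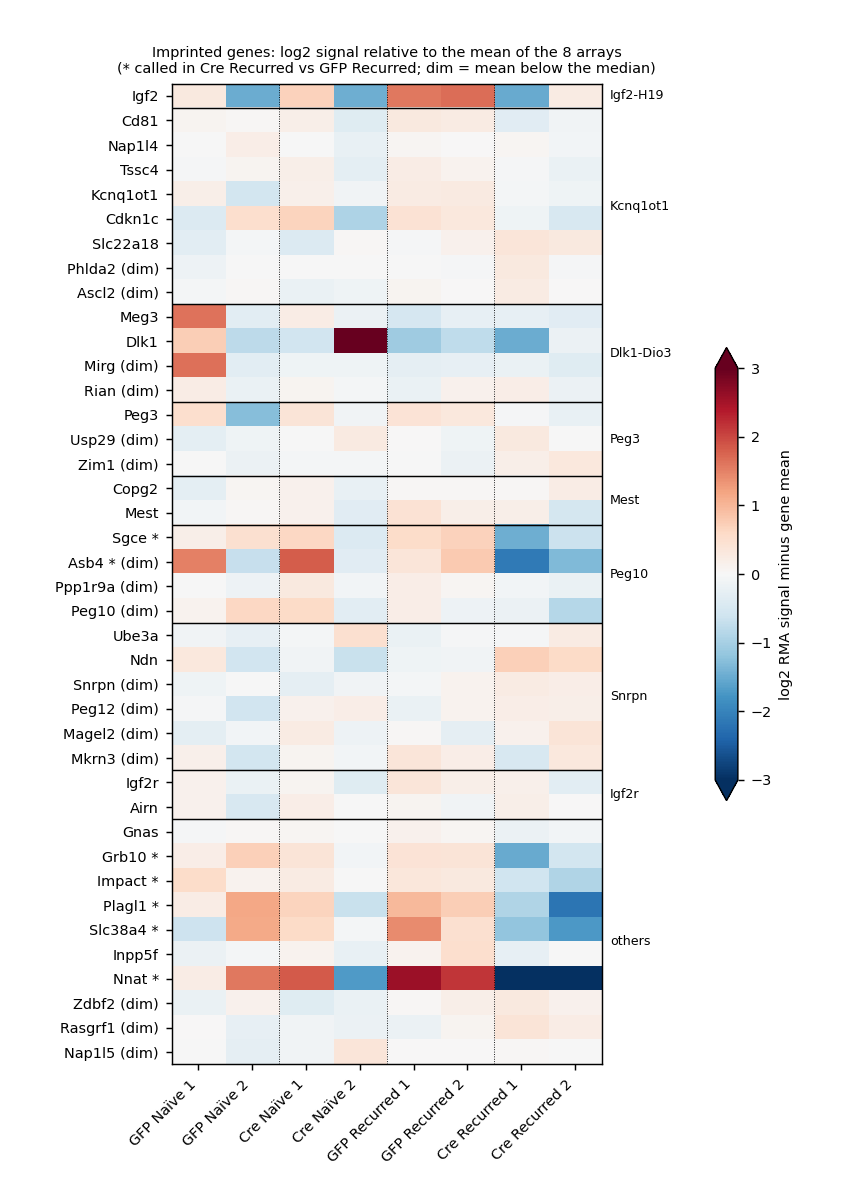
Log2 RMA signal of the 40 measured imprinted genes (rows, grouped by cluster) on the 8 arrays (columns), drawn as the difference from each gene's mean over the arrays, with colours capped at -3 and 3. The rows marked with an asterisk, which were called between the recurred populations, are blue on both Cre Recurred arrays, and Dlk1 is dark red on Cre Naïve replicate 2 alone.

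A few markers of other cells were called between the recurred populations, beside 8.85% of all probe sets. They were 2 of 7 mesothelial, 1 of 4 muscle and 1 of 3 measured adipocyte markers. Of 7 mesothelial markers, Msln was 3.28-fold and Krt19 3.91-fold higher in Cre Recurred than in GFP Recurred cells. Wt1, the other marker of the list above the median, had a log2 difference of -0.40 and was not called, and the median of the list was 0.04. The list averaged 5.23 and 5.22 on the Cre Recurred arrays and 4.57 to 4.90 on the others, and Upk3b, Lrrn4, Krt8 and Krt18 were below the median of all probe sets. The muscle marker Des was 3.13-fold higher, the muscle list averaging 5.92 and 6.03 against 5.22 to 6.001. Acta1 had a log2 difference of 0.48 that was not called, and Myod1 and Myog were dim. Of the adipocyte markers Pparg was 5.06-fold lower, Fabp4 had a log2 difference of 0.89 that was not called and Adipoq was dim, and the list averaged 5.88 and 5.23 against 5.44 to 6.68. Of the fibroblast markers Thy1 was 1.88-fold higher and Fap 5.23-fold lower. None of the macrophage, endothelial or epithelial markers was called between these populations. The part of these genes' cells in the imprinted gene differences was not tested.

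Nnat showed the widest range of any member. It encodes neuronatin, a small proteolipid of the endoplasmic reticulum, lies on chromosome 2 and is expressed from the paternal copy. Its log2 signals were 7.30 and 8.67 in GFP Naïve, 8.91 and 5.38 in Cre Naïve, 9.64 and 9.23 in GFP Recurred and 3.94 and 3.59 in Cre Recurred cells. Both Cre Recurred arrays lay below every other array, and Cre Naïve replicate 2 lay below the rest. Nnat was 51.1-fold lower in Cre Recurred than in GFP Recurred cells (log2 difference -5.67, standard error 1.02, adjusted p = 0.063 from limma). As both Cre Recurred signals lay below the median of all probe sets, the fold may understate the change. The Cre arrays were 9.56-fold lower than the GFP arrays over both states (adjusted p = 0.22), a call that was lost without GFP Naïve replicate 2 or any recurred array. From Cre Naïve to Cre Recurred cells the difference was -3.39 (adjusted p = 0.33). It was -5.15 without Cre Naïve replicate 2 and -1.62 without Cre Naïve replicate 1. The interaction was -4.83 (adjusted p = 0.37), and -6.60 and -3.07 without these arrays in the same order. Nnat lies within an intron of Blcap, a gene that is biallelic in most tissues. Blcap, looked up after its values were seen, read 8.77 to 9.06 on all 8 arrays, with a difference of -0.04 between the recurred populations.

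The stretch just upstream of the Nnat start is shown because methylation of CpG pairs marks a copy at many imprinted genes. The pairs are set in capitals. The window of 250 bases lies at chr2:157559828-157560077 on the plus strand (RefSeq, GRCm38.p6) and holds 12 CpG pairs, a number reached by 33.5% of all promoters of this length.
Nnat promoter: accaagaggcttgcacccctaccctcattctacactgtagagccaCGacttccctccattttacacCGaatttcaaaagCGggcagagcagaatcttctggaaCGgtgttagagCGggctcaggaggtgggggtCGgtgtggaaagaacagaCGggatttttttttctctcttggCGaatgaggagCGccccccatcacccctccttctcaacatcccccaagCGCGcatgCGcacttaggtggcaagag

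Plagl1, also called Zac1, encodes a paternally expressed zinc finger transcription factor on chromosome 10 that restrains growth and regulates other imprinted genes. Its log2 signal was 9.42 and 10.35 in GFP Naïve, 9.87 and 8.53 in Cre Naïve, 10.18 and 9.95 in GFP Recurred and 8.30 and 7.02 in Cre Recurred cells. Both Cre Recurred arrays were the lowest of the 8, followed by Cre Naïve replicate 2. The fall between the recurred populations was 5.31-fold (log2 difference -2.41, standard error 0.57, adjusted p = 0.10 from limma). Without RB, recurred cells stood at -1.54 relative to naïve cells (adjusted p = 0.38), and at -2.21 without Cre Naïve replicate 2. The call rests on the brightest of 3 Plagl1 probe sets. The next read between 4.45 and 4.96 on all arrays, with a difference of 0.02 between the recurred populations, and the dimmest between 3.82 and 5.09, with a difference of -0.86 (adjusted p = 0.27).

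The Plagl1 promoter window lies at chr10:13090582-13090831 on the plus strand (RefSeq, GRCm38.p6). It holds 19 CpG pairs, in capitals, a number reached by 19.7% of promoters, and 1 copy of TGCCGC, the hexamer that ZFP57 recognises when methylated, found on either strand.
Plagl1 promoter: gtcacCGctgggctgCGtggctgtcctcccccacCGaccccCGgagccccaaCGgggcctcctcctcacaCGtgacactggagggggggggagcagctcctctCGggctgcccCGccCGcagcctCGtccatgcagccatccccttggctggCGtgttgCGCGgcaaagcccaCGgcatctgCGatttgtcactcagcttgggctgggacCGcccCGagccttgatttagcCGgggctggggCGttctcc

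Slc38a4 encodes an amino acid transporter of the plasma membrane, on chromosome 15, expressed from the paternal copy in placenta and embryo. It read 6.78 and 8.56 in GFP Naïve, 7.99 and 7.35 in Cre Naïve, 8.82 and 7.88 in GFP Recurred and 6.22 and 5.70 in Cre Recurred cells. Again the Cre Recurred arrays were the lowest, whereas the GFP Naïve arrays were far apart. Slc38a4 was 5.25-fold lower in Cre Recurred than in GFP Recurred cells (log2 difference -2.39, standard error 0.59, adjusted p = 0.11). A second, dimmer probe set of the gene gave a larger difference of -3.48 (adjusted p = 0.057), with 8.12 and 7.86 in GFP Recurred and 4.86 and 4.16 in Cre Recurred cells.

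Impact, on chromosome 18, is a paternally expressed regulator of translation that dampens the response to amino acid shortage. Its arrays read 10.24 and 9.79 in GFP Naïve, 9.94 and 9.67 in Cre Naïve, 10.02 and 9.97 in GFP Recurred and 9.08 and 8.79 in Cre Recurred cells. Cre Recurred cells did not overlap with any other group, and the standard error was the smallest of the called members. Impact was 2.09-fold lower in Cre Recurred than in GFP Recurred cells (log2 difference -1.06, standard error 0.20, adjusted p = 0.067) and 1.83-fold lower than in Cre Naïve cells (adjusted p = 0.249, at the edge of the threshold). The second call was lost without Cre Naïve replicate 1 or any recurred array, and without Cre Naïve replicate 2 the difference was -1.004 (adjusted p = 0.17). Over both states the Cre arrays were 1.56-fold lower (adjusted p = 0.21), which was no longer called without Cre Naïve replicate 2 (log2 difference -0.57, adjusted p = 0.45), without GFP Naïve replicate 1 or without any of the recurred arrays. A dimmer probe set read 7.90 and 7.68 in GFP Recurred and 7.261 and 7.395 in Cre Recurred cells, under the 1.5-fold threshold, while the dimmest read 5.47 to 5.94 on all arrays.

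Grb10 encodes an adaptor that damps signalling from the insulin and IGF receptors, lies on chromosome 11 and is expressed from the maternal copy outside the brain. Its signals were 11.51 and 12.02 in GFP Naïve, 11.70 and 11.23 in Cre Naïve, 11.72 and 11.69 in GFP Recurred and 9.80 and 10.76 in Cre Recurred cells. The Cre Recurred arrays were the lowest of the 8 but differed from each other by 0.97. Grb10 was 2.68-fold lower in Cre Recurred than in GFP Recurred cells (log2 difference -1.42, standard error 0.33, adjusted p = 0.10). From Cre Naïve to Cre Recurred cells Grb10 had -1.18 (adjusted p = 0.31), and -1.42 without Cre Naïve replicate 2. The other 2 probe sets of the gene were far dimmer and differed by -0.24 and -0.41 between the recurred populations, neither of them called.

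**Figure D2:**
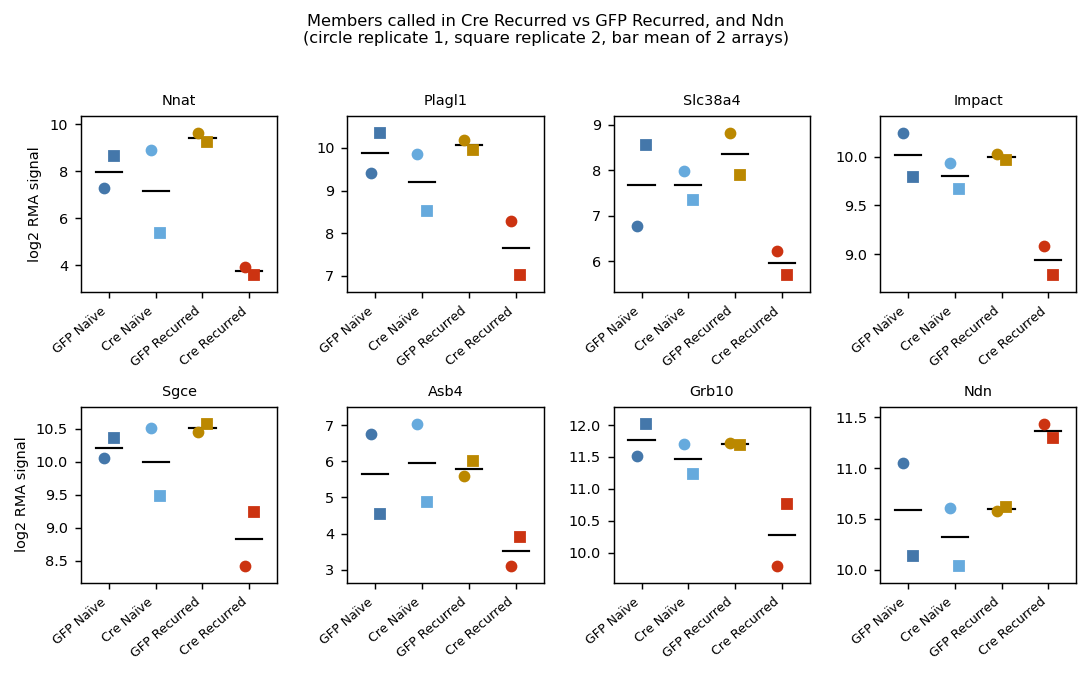
Log2 RMA signal of the 7 imprinted genes called between the recurred populations, and of Ndn, on each array (circle replicate 1, square replicate 2) by population, with the mean of the 2 arrays as a bar. For the 7 genes the red Cre Recurred points sit below both GFP Recurred points, and for Ndn they sit above all others. The vertical scales differ between panels and do not start at 0.

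Sgce and Asb4 belong to the Peg10 cluster on chromosome 6. Of the 8 clusters it was the only one with called genes among the members. A wider list of imprinted genes, some of which were called, was not counted in the clusters, so calls were not shown to be confined to this one. Sgce encodes epsilon-sarcoglycan, a membrane protein that shares its paternally active promoter with Peg10, a gene derived from a retrotransposon. Sgce read 10.05 and 10.36 in GFP Naïve, 10.50 and 9.48 in Cre Naïve, 10.45 and 10.58 in GFP Recurred and 8.43 and 9.23 in Cre Recurred cells. The Cre Recurred arrays were lowest, and Cre Naïve replicate 2 was nearest to them. The difference between the recurred populations was -1.68 (standard error 0.37, adjusted p = 0.092), a 3.21-fold fall. A second, dim Sgce probe set differed by -0.21 (adjusted p = 0.68). At the brighter probe set, Cre Recurred cells stood at -1.16 relative to Cre Naïve cells (adjusted p = 0.34), and at -1.68 without Cre Naïve replicate 2. The interaction for Sgce was -1.47 (adjusted p = 0.43), and -1.98 without that array.

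Asb4 encodes a substrate receptor of a ubiquitin ligase and is expressed from the maternal copy. Its signals, of which the mean lay below the median of all probe sets, were 6.75 and 4.55 in GFP Naïve, 7.05 and 4.89 in Cre Naïve, 5.59 and 6.01 in GFP Recurred and 3.11 and 3.91 in Cre Recurred cells. In both naïve groups replicate 1 was more than 2 log2 units above replicate 2. The Cre Recurred arrays were below all others, and the difference from GFP Recurred cells was -2.29 (standard error 0.86, adjusted p = 0.24), the least certain of the 7 calls. The call was lost under a trended and robust prior (adjusted p = 0.31) and without any of the recurred arrays. From Cre Naïve to Cre Recurred cells Asb4 had -2.46 (adjusted p = 0.37). It had -3.54 without Cre Naïve replicate 2 and -1.38 without Cre Naïve replicate 1. The second probe set gave -1.05 (adjusted p = 0.45).

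RefSeq lists a pair of starts for Asb4, and both upstream windows are shown because they are poorer in CpG than those of Nnat and Plagl1. On the plus strand of GRCm38.p6, chr6:5383136-5383385 holds 4 CpG pairs and chr6:5390160-5390409 holds 8.
Asb4 promoter at the outer start: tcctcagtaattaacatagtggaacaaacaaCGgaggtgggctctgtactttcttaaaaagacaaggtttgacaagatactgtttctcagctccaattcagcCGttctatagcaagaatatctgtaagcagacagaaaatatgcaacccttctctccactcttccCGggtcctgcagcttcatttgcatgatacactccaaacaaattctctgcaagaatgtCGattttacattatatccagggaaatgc
Asb4 promoter at the inner start: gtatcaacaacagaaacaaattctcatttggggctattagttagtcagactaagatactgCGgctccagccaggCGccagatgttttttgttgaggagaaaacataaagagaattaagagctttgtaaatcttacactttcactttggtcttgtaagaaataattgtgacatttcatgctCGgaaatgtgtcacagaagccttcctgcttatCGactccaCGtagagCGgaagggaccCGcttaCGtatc

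The other members of the Peg10 cluster were dim. Peg10 itself read 2.91 to 4.38 over the 8 arrays, with a difference of -0.54 between the recurred populations (adjusted p = 0.52). Ppp1r9a, which encodes the actin-binding protein neurabin and is expressed from the maternal copy, read 4.27 to 4.76, with a difference of -0.26 (adjusted p = 0.47). Neighbours on a wider list of imprinted genes extended the picture. Tfpi2, a secreted inhibitor of serine proteases that is maternally expressed in placenta, read 8.24 and 9.10 in GFP Naïve, 8.02 and 7.15 in Cre Naïve, 8.65 and 9.04 in GFP Recurred and 3.90 and 3.90 in Cre Recurred cells. Both Cre Recurred arrays lay far below the 6 others, and the Cre Naïve arrays lay below the 4 GFP arrays, with a difference of -1.08 from GFP Naïve cells that was not called (adjusted p = 0.997). Tfpi2 was 30.7-fold lower in Cre Recurred than in GFP Recurred cells (log2 difference -4.94, standard error 0.36, adjusted p = 0.013) and 12.8-fold lower than in Cre Naïve cells (adjusted p = 0.037). Since 3.90 lay below the median of all probe sets, both folds may understate the change. Its interaction was called (log2 difference -3.86, adjusted p = 0.17). Other genes among these were not called. Casd1, between Tfpi2 and Sgce, had -0.54 (adjusted p = 0.17). Pon3 and Pon2, between Ppp1r9a and Asb4, had -0.88 (adjusted p = 0.27) and -0.14 (adjusted p = 0.81). At the outer ends, Calcr had 0.32 (adjusted p = 0.43) and Dlx5 0.16 (adjusted p = 0.68). Genes that were not called thus lay between those that were. Of these, Peg10 and Ppp1r9a were dim, and Casd1 missed only the 1.5-fold threshold. From Tfpi2 to Asb4 all the differences were negative, and whether the region changed as a whole was not tested.

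**Figure D3:**
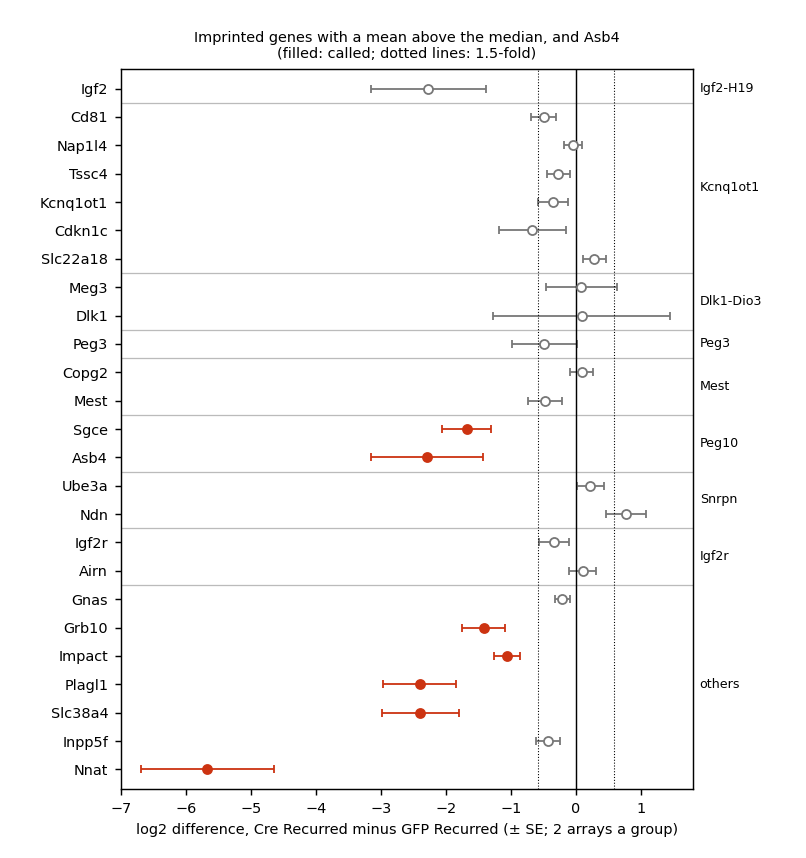
Log2 difference of Cre Recurred minus GFP Recurred cells (points, with standard errors from limma as bars, 2 arrays a group) for the 24 imprinted genes with a mean above the median and for Asb4, grouped by cluster. The 7 called genes (filled) lie at or below -1.06, left of the dotted 1.5-fold line, and Ndn at 0.76 is farthest to the right.

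The growth factor gene Igf2 lay at the edge of the threshold, and its clearance receptor was not called. Igf2, paternally expressed on chromosome 7, read 8.95 and 7.17 in GFP Naïve, 9.35 and 7.20 in Cre Naïve, 10.24 and 10.35 in GFP Recurred and 7.14 and 8.90 in Cre Recurred cells. The GFP Recurred arrays were the highest and lay close together, whereas within each of the other groups the arrays differed by 1.76 or more. The difference between the recurred populations was -2.27 (standard error 0.88, adjusted p = 0.26), just outside the threshold. It was called under 10 of 21 alternatives, among them the SAM-type statistic that the study's method corresponds to (adjusted p = 0.074), only the compared arrays and the loss of any naïve array. The difference from GFP Naïve to GFP Recurred cells was 2.23 (adjusted p = 0.87). Igf2r, the maternally expressed receptor that takes up IGF2 for breakdown, read 8.11 to 8.83 and differed by -0.34 between the recurred populations, and its antisense RNA Airn read 6.07 to 6.75 and differed by 0.10. Neither was called.

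The probe set shared by H19, a maternally expressed non-coding RNA next to Igf2, and Mir675, the microRNA that it hosts, had another pattern. It read 5.76 and 5.01 in GFP Naïve, 5.98 and 8.62 in Cre Naïve, 4.94 and 5.07 in GFP Recurred and 6.82 and 9.85 in Cre Recurred cells. The highest arrays were Cre Recurred replicate 2 and Cre Naïve replicate 2, the arrays with the correlation of 0.992. On the GFP Recurred arrays, where Igf2 was highest, this probe set was low, whereas Cre Recurred replicate 2 read above replicate 1 for both. As the probe set carries both symbols, no gene was assigned to it.

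The Dlk1-Dio3 cluster on chromosome 12 was marked by single arrays. Dlk1, a paternally expressed transmembrane protein of the Notch family that holds preadipocytes undifferentiated, read 7.09 and 5.57 in GFP Naïve, 5.77 and 10.45 in Cre Naïve, 5.29 and 5.58 in GFP Recurred and 4.86 and 6.19 in Cre Recurred cells. Cre Naïve replicate 2 was 4.68 log2 units above its own replicate, and the other arrays stayed within 4.86 to 7.09. The difference of Cre Naïve from GFP Naïve cells was 1.77 (standard error 1.36, adjusted p = 0.997). It was 4.11 without Cre Naïve replicate 1, when Dlk1 was called, and turned to -0.57 without Cre Naïve replicate 2. The second Dlk1 probe set read 3.76 to 3.95 on all arrays.

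Meg3, the maternally expressed non-coding RNA of the same cluster, peaked on another array than Dlk1. Its brightest probe set read 8.001 and 6.05 in GFP Naïve, 6.59 and 6.18 in Cre Naïve, 5.86 and 6.12 in GFP Recurred and 6.12 and 6.02 in Cre Recurred cells. GFP Naïve replicate 1 stood above the 7 others. A dimmer Meg3 probe set, chosen after its values were seen, had a wider range, with 9.26 and 4.51 in GFP Naïve, 7.79 and 5.41 in Cre Naïve, 4.01 and 3.84 in GFP Recurred and 4.47 and 4.14 in Cre Recurred cells. On it, replicate 1 was high in both naïve groups and all 4 recurred arrays were low. Of the 11 Meg3 probe sets none was called in any comparison, and the difference of GFP Recurred from GFP Naïve cells was -1.04 at the brightest (adjusted p = 0.87). Mirg, a dim microRNA host RNA of the same strand as Meg3, read 6.08 on GFP Naïve replicate 1 and 4.05 to 4.30 on the others. Rian, which hosts small nucleolar RNAs, read 4.03 to 4.47. Without GFP Naïve replicate 2, Meg3 and Mirg were called lower in GFP Recurred than in GFP Naïve cells.

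**Figure D4:**
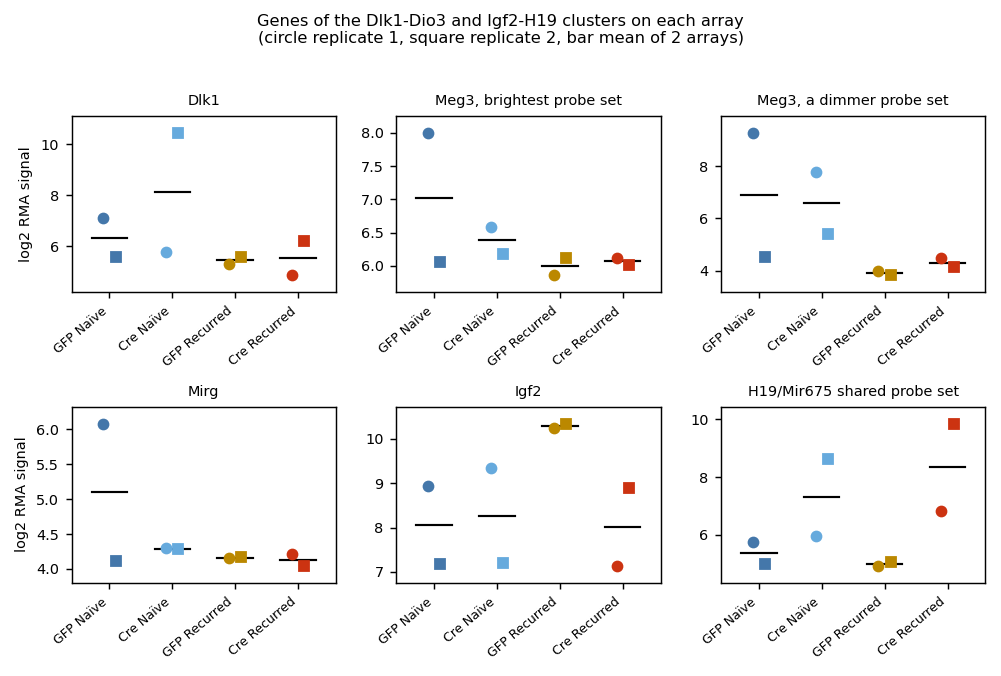
Log2 RMA signal of Dlk1, of Meg3 at 2 probe sets, of Mirg, of Igf2 and of the probe set shared by H19 and Mir675, on each array (circle replicate 1, square replicate 2) with the mean of the 2 arrays as a bar. Dlk1 reaches 10.45 on Cre Naïve replicate 2 and Meg3 and Mirg peak on GFP Naïve replicate 1, so the replicates of a naïve group often lie farther apart than the group means. The vertical scales differ between panels.

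The Snrpn cluster on chromosome 7 went the other way at Ndn. Ndn encodes necdin, a paternally expressed growth-restraining protein that binds p53 and E2F1. It read 11.05 and 10.14 in GFP Naïve, 10.61 and 10.04 in Cre Naïve, 10.58 and 10.62 in GFP Recurred and 11.44 and 11.29 in Cre Recurred cells. The Cre Recurred arrays were the highest of the 8, with GFP Naïve replicate 1 next. The difference from GFP Recurred cells was 0.76 (standard error 0.31, adjusted p = 0.27) and that from Cre Naïve cells 1.04 (adjusted p = 0.32), so the brightest probe set was not called. Of the 4 other bright Ndn probe sets, however, 3 passed the thresholds between the recurred populations, with log2 differences of 0.82 to 0.94 and an adjusted p of 0.165 to 0.202. Its neighbours Magel2, Mkrn3, Peg12 and Snrpn were dim at probe sets of their own, and Ube3a, a ubiquitin ligase imprinted in neurons, read 10.95 to 11.67 with a difference of 0.22. The brightest probe sets shared by Snurf and Snrpn read 9.54 to 10.00 on all arrays.

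The Kcnq1ot1 cluster, also on chromosome 7, had 8 measured members and no call among them, with differences from -0.67 to 0.28 between the recurred populations. Genes of the wider list of imprinted genes were not counted in this cluster. Cdkn1c, which encodes the cyclin-dependent kinase inhibitor p57, read 6.40 and 7.32 in GFP Naïve, 7.48 and 5.88 in Cre Naïve, 7.24 and 7.13 in GFP Recurred and 6.69 and 6.33 in Cre Recurred cells. Cre Naïve replicate 2 was the lowest array and replicate 1 of the same group the highest, a gap of 1.60 that was larger than any difference between group means. Kcnq1ot1, the paternal RNA that silences its neighbours, read 7.15 to 7.95. The tetraspanin gene Cd81 read 11.46 to 12.11, the histone chaperone gene Nap1l4 10.51 to 10.94 and Tssc4 7.92 to 8.44. Slc22a18, a transporter gene, read 5.83 to 6.59. Its log2 difference of Cre Recurred from Cre Naïve cells was 0.50 (adjusted p = 0.37 from limma), and 0.72 without Cre Naïve replicate 2. Phlda2 and Ascl2, genes of the placenta, were dim, with ranges of 0.46 and 0.44 over the 8 arrays.

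Peg3 on chromosome 7, a paternally expressed zinc finger gene, read 8.91 and 7.13 in GFP Naïve, 8.80 and 8.29 in Cre Naïve, 8.81 and 8.72 in GFP Recurred and 8.37 and 8.19 in Cre Recurred cells. GFP Naïve replicate 2 stood below all other arrays, and the difference between the recurred populations was -0.49 (adjusted p = 0.70). Its neighbours Usp29 and Zim1 were dim, at 3.05 to 3.64 and 3.15 to 3.65. In the Mest cluster on chromosome 6, Mest, a growth-promoting hydrolase gene, read 5.01 to 5.96, and Copg2, its antisense neighbour, 8.41 to 8.93. Gnas, which encodes the stimulatory G protein alpha subunit, was the brightest member and varied least, from 13.07 to 13.35. Inpp5f read 6.99 to 7.74, and Zdbf2, Rasgrf1 and Nap1l5 were dim. None of these genes was called in any comparison.

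Other imprinted genes were read from a list of 42 more, of which 33 were measured. Between the recurred populations 5 of them were called, beside the 8.85% of all probe sets. Gatm, an enzyme of creatine synthesis imprinted in placenta, was 5.84-fold higher in Cre Recurred cells (adjusted p = 0.050), with 3.47 and 3.54 in GFP Recurred against 6.18 and 5.92 in Cre Recurred cells. Tfpi2, the matrix proteoglycan gene Dcn, Dhcr7 and Osbpl5 were lower. Dhcr7, the last enzyme of cholesterol synthesis, fell 2.59-fold (adjusted p = 0.074), and Osbpl5, an oxysterol-binding protein gene, fell 1.54-fold (adjusted p = 0.13). The median log2 difference of the 33 genes was 0.0045.

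The proteins that maintain imprints were followed through a list of 28 regulators, of which 27 were measured. Between the recurred populations 4 were called, beside the 8.85% of all probe sets, and in the other comparisons 0. Uhrf1, which brings DNMT1 to newly copied DNA, was 1.71-fold higher in Cre Recurred than in GFP Recurred cells (adjusted p = 0.11), with 10.18 and 10.36 against 11.08 and 11.01. Setdb1, the histone methyltransferase that TRIM28 recruits, was 1.57-fold higher (adjusted p = 0.11), and Hells, a chromatin remodeler needed for DNA methylation, was 1.59-fold higher (adjusted p = 0.19). Dnmt3l, a cofactor of the germline methyltransferases, was 2.95-fold lower (adjusted p = 0.16), from 7.01 and 7.44 to 5.00 and 6.32. Dnmt1 differed by 0.26 (adjusted p = 0.37), Trim28 by -0.27 (adjusted p = 0.47) and the insulator protein gene Ctcf by 0.53 (adjusted p = 0.23, under 1.5-fold). Zfp57 read 6.44 to 6.94 and Dppa3 4.47 to 4.81 on all arrays, and neither was called.

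The upstream windows of the members were richer in CpG than most. Promoters were found for 35 members, with 53 starts in all outside chromosome 18. The 250 bases before a start held a median of 10 CpG pairs, against 6 over 32851 promoters. The hexamer TGCCGC, searched on both strands, occurred in 8 of the 53 windows, in 7 genes, and in 8.68% of all promoters. Of the 5 called members with a window, Plagl1 was the one with the hexamer. No promoter was found for Sgce. Impact lies on chromosome 18, which was left out, so whether the hexamer occurs there is not given. The windows of Grb10 held 8 and 40 CpG pairs and those of Slc38a4 held 3 to 5, so these members ranged from CpG-poor to CpG-rich.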

How the data were processed

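Total RNA of the 4 fibroblast populations was measured on Affymetrix whole-genome mouse arrays, 2 for each population. The authors deposited log2 signals from the Robust Multichip Average (RMA), which corrects background, normalizes quantiles and summarises probes, and these were used as deposited. The RMA software is not given in the sources used here.

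Of 45101 probe sets, 64 controls were left out. In the array annotation 34945 carried 1 symbol, 932 several and 9160 none, and no gene was named from a probe set with several. The members and lists were chosen with earlier results of these data known. Given with every array are members called in any comparison, and members above the median of all probe sets whose arrays span 1 log2 unit or more, 13 genes in all. From the other lists up to 4 genes with the smallest adjusted p are named, with 6 regulators fixed by name.

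A linear model with a mean for each population was fitted to all 8 arrays (limma 3.58.1, R 4.3.3), which left 4 residual degrees of freedom beside 3.07 prior ones. The study had used SAM, run here as an alternative. Others were array weights (statmod 1.5.0), a trended prior, treat at 1.2-fold, other normalizations and probe set choices, a replicate block and leaving out each array. The fit was tested on simulated data. Promoters came from RefSeq (GRCm38.p6), and figures were drawn with Python 3.11.15 and matplotlib 3.10.9. Precision is limited by the number of arrays.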

Additional observations from a re-analysis of the deposited data

Results flagged for a closer look

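Tfpi2, from the list of other imprinted genes, was the only gene of these lists, the 40 members included, for which the effect of recurrence differed between cells with and without RB by the interaction test. Its interaction was -3.8567 on the log2 scale (adjusted p = 0.17 from limma). Both Cre Recurred arrays read 3.90, and the 6 others read 7.15 to 9.10.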

How the results depend on the processing

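Between the recurred populations the same 7 genes were called with cyclic loess and median centring. Asb4 was lost with the trended and robust prior and with treat, and Igf2 was gained with array weights, the SAM-type statistic and only the compared arrays. The number of arrays limits all of these calls. With each array left out in turn, the number of imprinted genes called ranged from 0 to 1 for Cre Naïve minus GFP Naïve, 0 to 2 for GFP Recurred minus GFP Naïve, 0 to 7 for Cre Recurred minus Cre Naïve, 0 to 9 for Cre Recurred minus GFP Recurred, 0 to 7 for Cre minus GFP over both states and 0 to 3 for the interaction. For Cre Recurred minus GFP Recurred, 1 was called at the second-brightest probe set and 0 at an adjusted p under 0.05. For Cre Recurred minus Cre Naïve, 0 were called with array weights, the SAM-type statistic, treat, only the compared arrays, cyclic loess, the second-brightest probe set, the mean of all probe sets and an adjusted p under 0.05. For Cre minus GFP over both states, 5 were called with array weights and without dim probe sets, 1 with a trended and robust prior and at the second-brightest probe set, and 0 with treat and at an adjusted p under 0.05.

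Among 723 values of single genes under an alternative, 603 kept direction and side of the threshold, 70 were no longer called, 35 became called and 15 changed sign. Without _s_at and _x_at probe sets and at the second-brightest probe set, Plagl1 read 0.0537 for Cre Recurred minus Cre Naïve, 0.0246 for Cre Recurred minus GFP Recurred, 0.0224 for Cre minus GFP and 0.0042 for the interaction, all from a probe set below the median of all. Dlk1 read 0.0315 for Cre Recurred minus Cre Naïve in the same settings. With each array left out in turn, Dlk1 ran from -0.5660 (without Cre Naïve replicate 2) to 4.1148 (without Cre Naïve replicate 1) for Cre Naïve minus GFP Naïve, and from -4.0269 (without Cre Naïve replicate 1) to 0.6540 (without Cre Naïve replicate 2) for the interaction. The interaction was 0.0840 for Igf2 and 0.3163 for Grb10 at the second-brightest probe set, and 0.0183 for Grb10 with the mean of all probe sets. The cause was not tested.

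The labels do not say whether the replicate numbers pair the arrays, and the main fit treated them as unpaired. The correlation of same-numbered deviations between groups ran from -0.315 to 0.401 over 22518 probe sets. With the replicate block 8 members were called for Cre Recurred minus GFP Recurred (Ndn in addition), 1 for Cre Recurred minus Cre Naïve and 2 for Cre minus GFP over both states.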
